A study of Mus musculus with 13 samples.

Results

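The genes described here encode the constant regions of mouse antibodies and the J chain. They are the 8 heavy chain constant genes Ighm, Ighd, Ighg1, Ighg2b, Ighg2c, Ighg3, Igha and Ighe, the kappa light chain constant gene Igkc, and Jchain. These 10 genes were found by symbol among the 52550 genes of the count table, and all 10 had a row. The set was chosen by its levels per library, because its members were high in the libraries of injured adults and close to 0 in those of development. The levels across those 2 datasets are therefore a description, with no test. Earlier results of these data were also known when the set was chosen.

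The RNA came from retinal cells sorted by FACS for the surface protein Thy1.2, labelled as retinal ganglion cells (RGCs), in 13 libraries. The 5 knockout libraries came from P42 mice with floxed Kdm6a, which encodes a demethylase of histone H3 lysine 27, taken 3 days after optic nerve crush. Of these, 2 had received the Cre virus AAV2-Cre in the vitreous (UTX knockout) and 3 had received AAV2-GFP, so all 5 shared the floxed allele, the virus injection and the crush. The 8 development libraries came from uninjured WT mice, with 3 at P1, 3 at P14 and 2 at P21. The labels give P42, while the methods place the injection at about that age and the crush after it, so the exact age is uncertain. Injected virus can reach retinal cells other than RGCs, and the promoter of the virus and the number of mice per library are not given in the sources used here. Where libraries are not known to come from separate animals, p-values measure only the spread between libraries. No 2 replicates were alike to within counting error.

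An antibody is built from 2 kinds of chain, heavy and light, and its class is set by the heavy chain constant region. A resting B cell joins its variable segment to Ighm and Ighd and carries IgM and IgD on its surface. Class switching joins the same variable segment to an IgG, IgE or IgA gene further along the locus. Plasma cells, the final stage of the B lineage, secrete antibody in bulk, and those that make IgA or polymeric IgM also make the J chain. The J chain links these antibodies into dimers and pentamers. In mice most IgA plasma cells lie in mucosal and glandular tissue. Neurons and photoreceptors are not known for making antibody, and the normal retina holds few lymphocytes.

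All positions are in GRCm38, from GENCODE M21, whose gene versions matched those of the table for all 10 members. The heavy chain genes lie on the minus strand of chromosome 12, in the order in which a switching B cell meets them. Ighm is at chr12:113418558-113422730, and Ighd follows at chr12:113406604-113416324. The 4 IgG genes come next, with Ighg3 at chr12:113356224-113361232, Ighg1 at chr12:113325240-113330523, Ighg2b at chr12:113302965-113307933 and Ighg2c at chr12:113285325-113288932. Ighe is at chr12:113269260-113273248 and Igha, the last of the locus, at chr12:113254830-113260236. Igkc is at chr6:70726435-70726966 on the plus strand and Jchain at chr5:88519809-88527891 on the minus strand. No other annotated gene shared exon bases with any of the 10.

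What sets the classes that bind J chain apart can be read in the last 60 coding bases of the secreted form, shown here 5′ to 3′ on the minus strand. In Ighm and Igha the codon before the last encodes a cysteine, in capitals, which forms the disulfide bond to the J chain. The IgG genes end without it.

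Ighm, chr12:113420870-113420929: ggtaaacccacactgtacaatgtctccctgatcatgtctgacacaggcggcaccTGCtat
Igha, chr12:113258771-113258830: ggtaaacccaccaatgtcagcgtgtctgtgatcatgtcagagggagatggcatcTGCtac
Ighg2b, chr12:113306392-113306451: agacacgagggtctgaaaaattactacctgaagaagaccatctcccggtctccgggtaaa
Ighg1, chr12:113328979-113329038: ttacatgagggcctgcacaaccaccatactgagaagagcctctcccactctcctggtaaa

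The IgG genes are close copies of one another, which bears on how their reads could be told apart. The longest run of bases shared by transcripts of Ighg2b and Ighg2c was 78 bases long, as printed in the next paragraph, and that shared by Ighg2b and Ighg3 was 88 bases long. Of all 50-base windows of Ighg2c transcripts, 5.49% also occurred in Ighg2b. At 100 bases no window of any member occurred in another, so that a whole 150-base read without errors has 1 place to go among the members. How reads with several places were counted is not given in the sources used here.

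Ighg2b and Ighg2c, longest shared run: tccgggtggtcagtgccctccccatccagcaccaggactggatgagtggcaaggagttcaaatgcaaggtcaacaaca

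The knockout libraries held 13637602 to 16070720 counts each, and the development libraries 30357454 to 38812917. Levels are given as CPM, the count divided by the library's total and scaled to a total of 1000000. A count of 0 in a development library allows a level of up to 0.0773 to 0.0988 CPM (3 counts of the total, counting error only). Kdm6a itself lay at 109.6 and 109.0 CPM in AAV2-Cre and at 117, 104 and 125 CPM in AAV2-GFP (log2 fold change -0.02, SE 0.15, Benjamini-Hochberg adjusted p = 0.963 from edgeR). The methods name exon 3 as the deleted part, and counts over the whole gene come mostly from outside it, so they do not check the deletion. RGC markers summed to 356 to 437 CPM in AAV2-Cre and 370.1 to 449 CPM in AAV2-GFP, against 8462 to 9278 CPM at P1, with 0 to 2 of the 15 at 0 in a knockout library. Rod photoreceptor markers, which a pure RGC sort would lack, summed to 13966 to 37114 CPM over the same 5 libraries. Red cell and neutrophil markers summed to 1.89 to 41.0 CPM over the knockout libraries.

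In the injured adult libraries the 10 genes together took a larger share of counts than all 15 RGC markers did. They summed to 28752 and 32179 CPM in AAV2-Cre, which is 2.88% and 3.22% of counts. In AAV2-GFP they summed to 5462, 18812 and 15029 CPM, from 0.546% to 1.88% of counts. The AAV2-Cre libraries lay above all 3 AAV2-GFP libraries, and AAV2-GFP replicate 1 lay lowest of the 5. At P1 the sum ran from 1.59 to 1.84 CPM, at P14 from 8.17 to 8.96 CPM and at P21 from 5.54 to 5.75 CPM. Each of the 10 genes was higher in all 5 knockout libraries than in any development library, which is the pattern the set was chosen for. For Ighe this rests on counts as low as 2 in a knockout library, too few to be sure of. Dataset, age, injury, virus injection and the floxed Kdm6a allele change together here and cannot be told apart. In bulk RNA, more cells of a type and more RNA per cell cannot be told apart either.

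**Figure D1:**
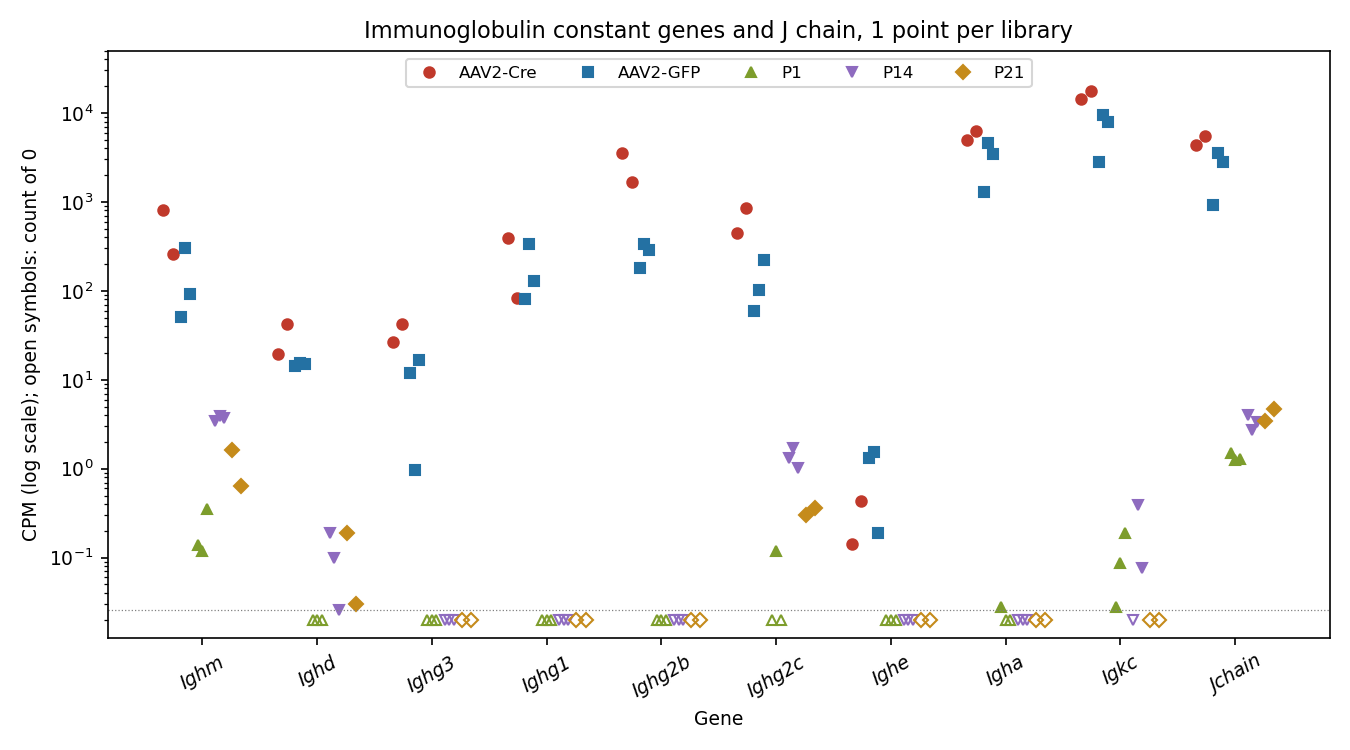
CPM on a log scale of the 8 heavy chain constant genes in their order along the locus, Igkc and Jchain, with 1 point per library, colors and shapes for the 5 groups, and open symbols for a count of 0. The AAV2-Cre and AAV2-GFP points lie above those of P1, P14 and P21 for every gene, from Igkc at up to 17461 CPM to Ighe at up to 1.56 CPM.

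Igkc, the constant region of nearly all mouse light chains, had the largest count of the set. It lay at 14164 and 17461 CPM in AAV2-Cre and at 2826, 9565 and 7952 CPM in AAV2-GFP. Both AAV2-Cre libraries were above every AAV2-GFP library. The difference did not pass the test (log2 fold change 1.28, SE 0.41, adjusted p = 0.165 from edgeR). In the development dataset Igkc had 26 counts over 8 libraries, with 3 libraries at 0.

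Igha, the constant region of IgA, lay at 4920 and 6249 CPM in AAV2-Cre and at 1308, 4577 and 3488 CPM in AAV2-GFP. The groups did not overlap, though AAV2-Cre replicate 1 and AAV2-GFP replicate 2 lay close together. The log2 fold change was 0.89 (SE 0.41, adjusted p = 0.324 from edgeR). In development a single Igha count was found, in 1 P1 library.

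Jchain lay at 4389 and 5533 CPM in AAV2-Cre and at 929, 3577 and 2825 CPM in AAV2-GFP. Again the groups did not overlap and AAV2-GFP replicate 1 was lowest (log2 fold change 1.08, SE 0.44, adjusted p = 0.265 from edgeR). Unlike Igkc and Igha, Jchain had counts in all 8 development libraries, at 1.26 to 1.502 CPM at P1, 2.70 to 4.05 CPM at P14 and 3.41 to 4.72 CPM at P21. Over these libraries it had 787 counts, 30.3 for each count of Igkc. In the knockout libraries the same ratio ran from 0.310 to 0.374.

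Ighm, the constant region of IgM, lay at 815 and 258 CPM in AAV2-Cre and at 50.2, 299 and 91.0 CPM in AAV2-GFP. The groups overlapped, since AAV2-GFP replicate 2 was above AAV2-Cre replicate 2 (log2 fold change 1.92, SE 0.68, adjusted p = 0.203 from edgeR). At P14 Ighm had 119 to 143 counts a library, or 3.42 to 3.92 CPM, against 4 to 13 counts at P1 and 21 and 60 at P21. Ighd, the constant region of the IgD of resting B cells, lay at 19.5 and 41.9 CPM in AAV2-Cre and at 14.2, 15.4 and 15.03 CPM in AAV2-GFP. Its 3 AAV2-GFP libraries were nearly level, and both AAV2-Cre libraries were above them (log2 fold change 1.11, SE 0.32, adjusted p = 0.131 from edgeR).

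The IgG genes did not move as 1 block. Ighg2b was the sole member called, going from 269 ± 79.0 CPM in AAV2-GFP (SD, n = 3) to 2626 ± 1362 CPM in AAV2-Cre (SD, n = 2). By library it lay at 3589 and 1664 CPM in AAV2-Cre and at 182, 337 and 288 CPM in AAV2-GFP, so that the lower AAV2-Cre library was still well above the highest AAV2-GFP library. The log2 fold change was 3.34 (SE 0.34, adjusted p = 0.00698 from edgeR). Over 14 alternative settings it ran from 2.73 to 3.79 and was called in each. The setting with no fold change limit reused the same fit, so it could not lose the call. Settings that left out an AAV2-Cre library had 1 library in that group, so the calls there say little.

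Ighg2c, the constant region of IgG2c, lay at 441 and 848 CPM in AAV2-Cre and at 58.8, 103 and 223 CPM in AAV2-GFP. Its groups did not overlap, and it missed the threshold by little (log2 fold change 2.39, SE 0.48, adjusted p = 0.0524 from edgeR). It was called by DESeq2 (adjusted p = 0.0398) and by limma-voom (adjusted p = 0.0192). Over its 14 alternatives the adjusted p ran from 2.86e-36, with no filter on low counts, to 0.280, without AAV2-Cre replicate 2. Its order of AAV2-Cre libraries was the opposite of that of Ighg2b.

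Ighg1 was at 388 and 82.0 CPM in AAV2-Cre and at 80.2, 335 and 129 CPM in AAV2-GFP. These groups overlapped (log2 fold change 0.42, SE 0.66, adjusted p = 0.821 from edgeR), and without AAV2-Cre replicate 1 the log2 fold change was -1.04. Ighg3 was at 26.3 and 42.1 CPM in AAV2-Cre and at 12.03, 0.976 and 16.8 CPM in AAV2-GFP (log2 fold change 1.84, SE 0.77, adjusted p = 0.279 from edgeR). Ighe, the constant region of IgE, had 2 and 7 counts in AAV2-Cre and 18, 24 and 3 counts in AAV2-GFP, too few to compare closely (log2 fold change -1.72, SE 1.25, adjusted p = 0.557 from edgeR).

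In the development libraries Ighg1, Ighg2b, Ighg3 and Ighe had no count at all. Ighg2c alone of the IgG genes had counts there, with 40 to 52 a library at P14, 11 and 12 at P21, and 4 in 1 of the 3 P1 libraries. In the adults Ighg2b had more counts than Ighg2c in each of the 5 libraries, so the order of their raw counts differed between the datasets. That order depends on length. In CPM per kilobase of exon, Ighg2c was above Ighg2b in AAV2-Cre replicate 2 (639.2 against 621.2) and AAV2-GFP replicate 3 (168.3 against 107.5). It was below Ighg2b in AAV2-Cre replicate 1 and in AAV2-GFP replicates 1 and 2.

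Of the members tested, 1 of the 10 members was called higher in AAV2-Cre and 0 lower, where a call needed an edgeR adjusted p below 0.05 together with an absolute log2 fold change of over 1. Over all 18395 genes tested, 1.13% were called higher (207 genes) and 0.217% lower (40 genes). Without AAV2-Cre replicate 1 the genes called higher numbered 8, and without AAV2-Cre replicate 2 they numbered 5, with Ighg2b among them each time. At an unadjusted p under 0.05, 7 members were higher and 0 lower, and DESeq2 called 3 higher and limma-voom 2, with 0 lower in both. Over all genes tested, 8.57% were higher and 7.9% lower at that unadjusted p, DESeq2 called 2.7% higher and 1.29% lower, and limma-voom called 1.5% higher and 0.272% lower. For 7 of the 10 members both AAV2-Cre libraries were above all AAV2-GFP libraries, as for 15.3% of all genes tested. The median log2 fold change of the members was 1.19, against -0.03 for all genes tested. The 10 genes were measured in the same libraries and are not independent of one another.

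**Figure D2:**
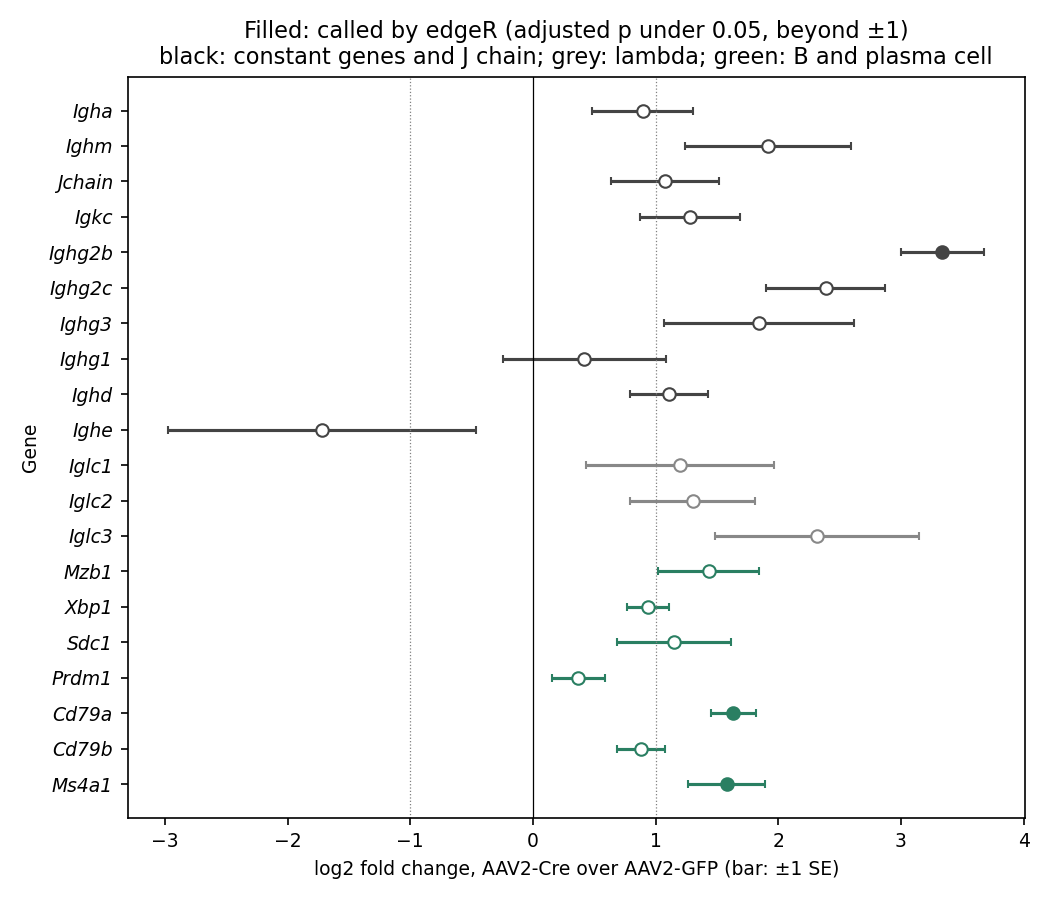
Log2 fold change of AAV2-Cre (n = 2 libraries) over AAV2-GFP (n = 3) for the constant genes and Jchain (black), lambda constant genes (grey) and defining genes of B and plasma cells (green), with bars of 1 SE. Filled points passed the edgeR threshold, and Ighg2b at 3.34 is the filled point farthest from 0.

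Igha, Igkc and Jchain had the most alike profiles of the members over the 5 knockout libraries. Likeness between 2 genes was measured as the root mean square difference of their log2 CPM profiles over these libraries, each centred on its own mean. Igkc and Jchain differed by 0.10, Igha and Jchain by 0.12 and Igha and Igkc by 0.19, while the next closest pair of members, Ighd and Igha, differed by 0.61. The ratio of Igha to Igkc counts was still not fixed, at 0.347 and 0.358 in AAV2-Cre and 0.463, 0.479 and 0.439 in AAV2-GFP, so that the groups did not overlap. Outside the antibody genes, the profile nearest to Igkc was that of Mzb1, an endoplasmic reticulum protein of marginal zone B and plasma cells, at 0.08, out of 10964 genes compared. Mzb1 was at 109 and 133 CPM in AAV2-Cre and at 19.1, 66.7 and 54.0 CPM in AAV2-GFP. The nearest to both Igha and Jchain was the serine protease gene Prss23, at 0.09 and 0.13, and AI506816 was next, at 0.09 and 0.14. The other genes among the 5 nearest to Igha, Igkc or Jchain were Qrfpr, Cyp1b1, Cdc42ep1 and Lag3. Ighm had no neighbour as close, its nearest being Pou2af1, a coactivator of antibody gene transcription, at 0.59, Itgae at 0.59, Izumo1r at 0.60, Prss56 at 0.62 and Irf4 at 0.63. All of these profiles share the same 5 libraries, and many genes were searched, so the likeness is a description.

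The AAV2-GFP libraries, which had the same treatment, differed several-fold in these genes. The highest of the 3 was 3.38 times the lowest for Igkc, 3.50 times for Igha and 3.85 times for Jchain. Among genes of plasma cells it was 3.50 times for Mzb1 and 4.10 times for Sdc1, the surface proteoglycan CD138, but 1.33 times for Xbp1, 1.59 times for Prdm1 and 1.88 times for Derl3. Among those of B cells it was 1.15 times for Cd79a, a signalling chain of the B cell receptor, 2.14 times for Ms4a1 and 3.67 times for Pou2af1. The 2 lists had medians of 1.66 times (plasma cell) and 1.72 times (B cell), and the 10 members a median of 3.82 times. Ighd was the most level member, at 1.09 times. AAV2-GFP replicate 1 had the lowest counts of IgA, kappa chain and J chain together with a level of Cd79a, at 18.0 CPM, that lay between those of the other libraries of its group.

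**Figure D3:**
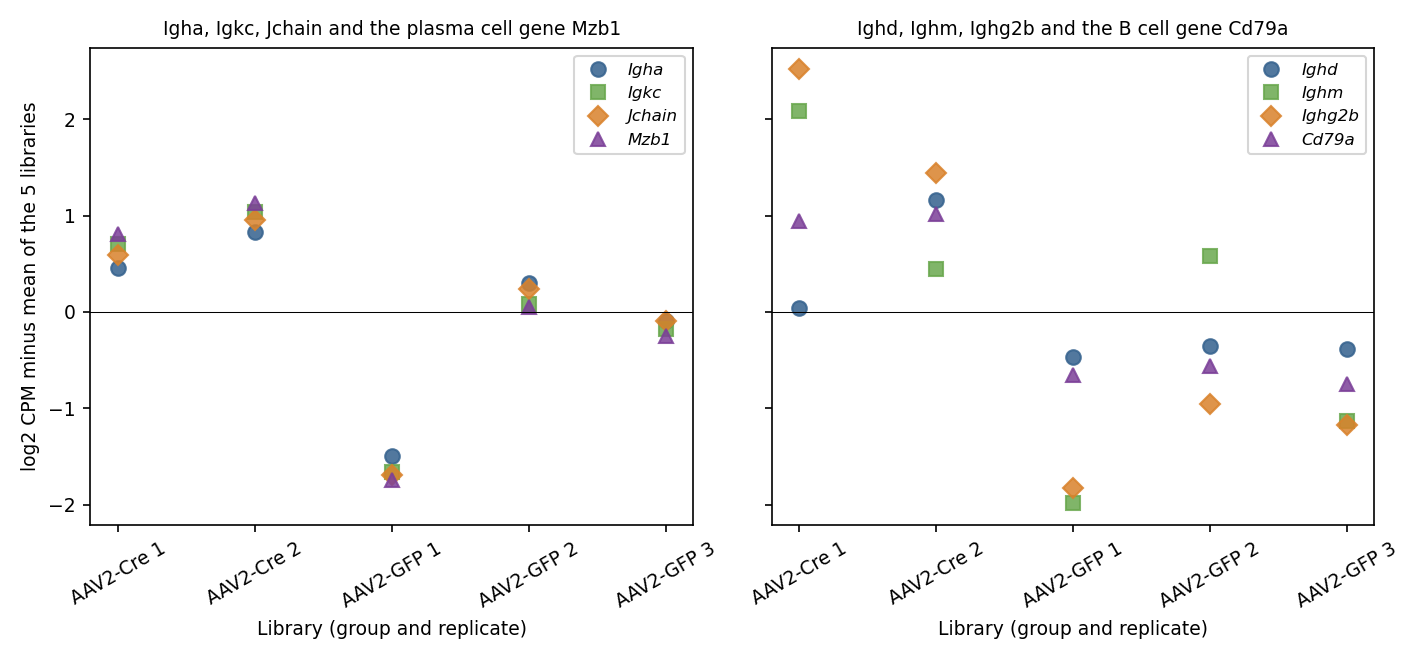
Log2 CPM of single genes in the 5 knockout libraries, each gene centred on its mean, with 1 point per gene and library. Igha, Igkc, Jchain and Mzb1 take the same order of libraries, from -1.74 to -1.50 in AAV2-GFP replicate 1 to 0.83 to 1.13 in AAV2-Cre replicate 2 (left), while Ighd, Ighm, Ighg2b and Cd79a part from each other, for instance from 2.51 for Ighg2b to 0.04 for Ighd in AAV2-Cre replicate 1 (right).

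The makeup of the heavy chain counts was led by IgA in every knockout library. Igha took 48.2% and 68.0% of the heavy chain constant counts in AAV2-Cre, and 76.6%, 80.7% and 82.0% in AAV2-GFP. Both AAV2-Cre shares were below all AAV2-GFP shares, with means of 58.1% ± 14.0 (SD, n = 2) and 79.8% ± 2.83 (SD, n = 3). The 4 IgG genes took 43.6% and 28.7% in AAV2-Cre and 19.5%, 13.7% and 15.5% in AAV2-GFP. Ighg2b alone took 35.2% and 18.1% in AAV2-Cre and 10.7%, 5.94% and 6.77% in AAV2-GFP. Of the IgG counts it was 80.8% and 63.1% in AAV2-Cre and 54.7%, 43.4% and 43.8% in AAV2-GFP. Ighg1 took 8.72% and 3.11% of the IgG counts in AAV2-Cre and 24.1%, 43.2% and 19.7% in AAV2-GFP. Ighm overlapped between the groups, at 7.99% and 2.80% against 2.94%, 5.28% and 2.14%. By an exact permutation test, two-sided, the difference in the Igha, IgG and Ighg2b shares had p = 0.2 each (0.567 after Benjamini-Hochberg adjustment over 17 makeup measures). This is the smallest p that 2 libraries against 3 allow, so the design cannot pass 0.05 here. The shares of a library add up to its whole, so the Igha, IgG and Ighg2b differences are not separate results. In CPM, Igha was higher in both AAV2-Cre libraries than in any AAV2-GFP library, though its share was lower. The shares are of counts and depend on transcript length. Divided by exon length, Igha still took the largest share in each library, from 44.8% to 77.4%.

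**Figure D4:**
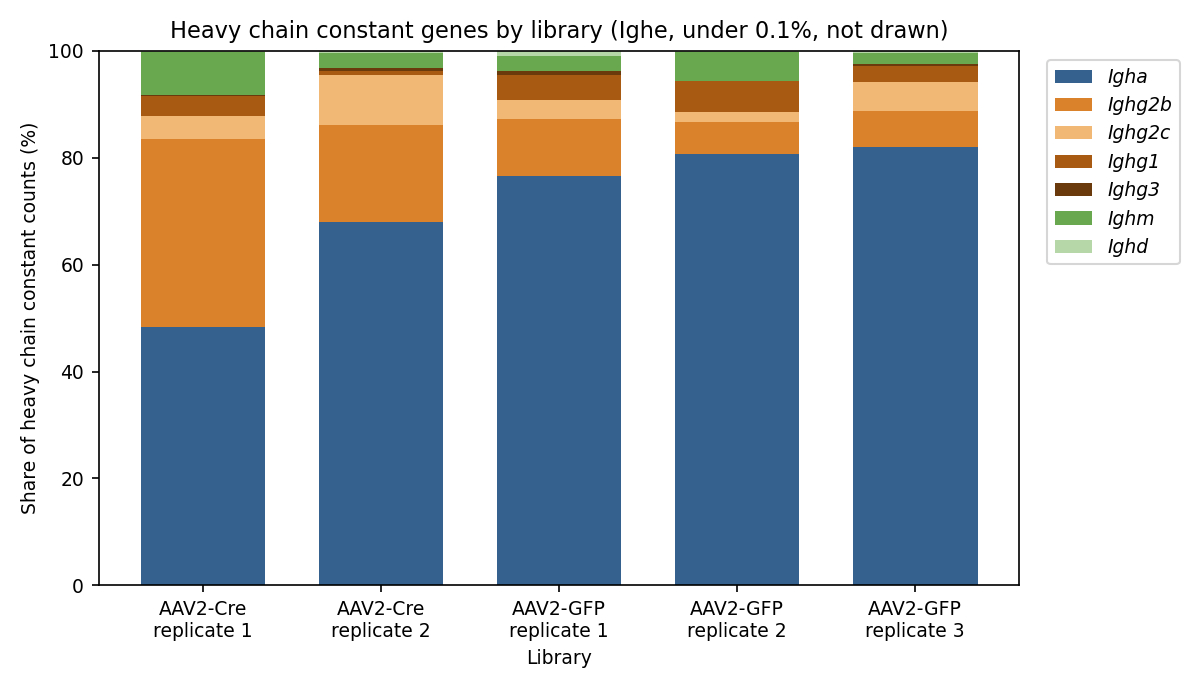
Share of the counts of the heavy chain constant genes taken by each gene, in percent, in the 2 AAV2-Cre and 3 AAV2-GFP libraries. Igha takes 48.2% and 68.0% in AAV2-Cre and from 76.6% to 82.0% in AAV2-GFP, and Ighg2b takes most of the remainder in AAV2-Cre.

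Light chains were almost all kappa. Igkc took from 99.73% to 99.90% of the light chain constant counts over the 5 knockout libraries, with means of 99.8% in both groups (exact permutation p = 1.0, two-sided). Of the lambda constant genes, Iglc1 was at 4.04 and 32.6 CPM in AAV2-Cre and at 3.15, 11.6 and 10.3 CPM in AAV2-GFP, with AAV2-Cre replicate 2 far above the other 4 libraries. Iglc2 ran from 1.91 to 11.8 CPM and Iglc3 from 0.147 to 3.68 CPM over the 5 libraries, and Iglc4 had no count. None of the 3 that were tested was called by edgeR, DESeq2 or limma-voom. At an unadjusted p under 0.05, 2 were higher, against 8.57% of all genes tested. Iglc2 and Iglc3 share exon bases with other annotated genes (38 and 93 bases), and their counts are less certain for it.

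Jchain was also set against the classes it binds. There were 0.892 and 0.885 Jchain counts for each Igha count in AAV2-Cre, and 0.710, 0.782 and 0.810 in AAV2-GFP. The ratio was higher in both AAV2-Cre libraries (exact permutation p = 0.2, two-sided, the smallest possible). Counted against Igha and Ighm together, the ratio ran from 0.765 to 0.850 in AAV2-Cre and from 0.684 to 0.789 in AAV2-GFP, and the groups overlapped. Kappa counts per heavy chain count also overlapped, at 1.39 and 1.90 in AAV2-Cre and 1.66, 1.69 and 1.87 in AAV2-GFP.

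Between genes, levels were compared as CPM per kilobase of exon, as medians over the 5 knockout libraries. Igkc stood highest at 17979, and its lowest library (5313) was above the highest library of Igha (2342). Igha (1716) and Jchain (1421) followed, with overlapping ranges. Ighg2c (168), Ighm (137) and Ighg2b (126) came next and overlapped widely, then Ighg1 (49.8). Ighd (8.12), Ighg3 (6.69) and Ighe (0.275) were lowest. With the length of the secreted transcript in place of all exons, Ighg2b (302) stood above Ighg2c (201) and Ighm (173), so the order among these 3 depended on the length used. That length also raised Igha to a median of 4161 and a highest library of 5681, which overlapped the lowest library of Igkc.

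Genes that act with antibodies in the B lineage were examined from lists chosen with earlier results of these data known. Of 24 genes of the B cell receptor and B cell identity, 5 were called higher, 0 lower and 19 not called (1.13% of all genes tested were called higher). Both AAV2-Cre libraries were above all AAV2-GFP libraries for 20 of the 24, against 15.3% of all genes, and the median log2 fold change was 1.21. Cd79a was at 53.4 and 55.0 CPM in AAV2-Cre and at 18.0, 19.4 and 16.9 CPM in AAV2-GFP (log2 fold change 1.63, adjusted p = 0.00827 from edgeR). Also called were Ms4a1, which encodes CD20 (1.58), the BAFF receptor gene Tnfrsf13c (1.42), the follicle homing receptor gene Cxcr5 (1.69) and Fcrla (1.25), with adjusted p from 0.0114 to 0.0477 from edgeR. Cd79b was not called, at a log2 fold change of 0.88 (adjusted p = 0.0663 from edgeR). With either 1 of the AAV2-Cre libraries left out, 0 of the list was called, and without AAV2-GFP replicate 2 or 3 the count was 3. At an unadjusted p under 0.05, 17 of the list were higher, and DESeq2 called 10 and limma-voom 6, against 8.57%, 2.7% and 1.5% of all genes.

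Of 14 genes of plasma cells and antibody secretion that were tested, 1 was called higher and 0 lower, with a median log2 fold change of 0.81. This was Derl3, a gene of protein disposal from the endoplasmic reticulum, at 29.4 and 23.4 CPM in AAV2-Cre and 4.84, 9.11 and 7.74 CPM in AAV2-GFP (log2 fold change 1.92, adjusted p = 0.0255 from edgeR). Xbp1, the transcription factor of the secretory program, had an adjusted p of 0.0394 but a log2 fold change of 0.94, short of the limit. Irf4 and Txndc5 stood at 1.54 and 0.85 on the log2 scale, Mzb1 at 1.43, Sdc1 at 1.15 and Prdm1 at 0.37, and none of them was called (adjusted p from 0.0653 to 0.441, edgeR). Derl3 was not called when either 1 of the AAV2-Cre libraries was left out. At an unadjusted p under 0.05, 11 of the list were higher, and DESeq2 and limma-voom called 2 each, against the same 8.57%, 2.7% and 1.5% of all genes. For 12 of the 14 both AAV2-Cre libraries were above all AAV2-GFP libraries, against 15.3% of all genes.

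Of 9 genes of class switch recombination none was called by edgeR, DESeq2 or limma-voom, and the median log2 fold change was 0.30. At an unadjusted p under 0.05, 1 was higher, against 8.57% of all genes. Of all genes, edgeR, DESeq2 and limma-voom called 1.13%, 2.7% and 1.5% higher. The smallest p in this list was that of Ung, at a log2 fold change of 0.79, followed by Shld2 (0.37), Batf (0.68) and Exo1 (0.60). Of 9 receptors that bind antibodies none was called by edgeR, DESeq2 or limma-voom, and the median log2 fold change was 0.42. At an unadjusted p under 0.05, 3 were higher, against the same 8.57% of all genes. Among them the IgG receptor genes Fcgr4, Fcgr1 and Fcgrt stood at 0.94, 0.97 and 0.42 and Fcer1g, a shared signalling chain, at 0.70 on the log2 scale.

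Markers of other cell types were also examined, with no test of a list as a whole. T and NK cell markers summed to 1094 and 1845 CPM in AAV2-Cre and to 510 to 933 CPM in AAV2-GFP, with none of 20 at 0. Of these, 1 was called higher and 0 lower (1.13% and 0.217% of all genes tested), and the median log2 fold change was 1.01. For 16 of them both AAV2-Cre libraries were above all AAV2-GFP libraries, against 15.3% of all genes. At an unadjusted p under 0.05, 18 of the 20 were higher, and DESeq2 called 10 and limma-voom 3. The shares of all genes were 8.57%, 2.7% and 1.5%. Klrd1 was the gene called (1.58), and Cd8b1 (1.17), Lck (1.01) and Nkg7 (1.13) were not. Rod markers summed to 13966 and 29587 CPM in AAV2-Cre and to 31307 to 37114 CPM in AAV2-GFP, with 0 of 14 called by edgeR. At an unadjusted p under 0.05, 6 were lower, and DESeq2 called 2 lower and limma-voom 1, against 7.9%, 1.29% and 0.272% of all genes. For 10 of the 14 both AAV2-Cre libraries were below all AAV2-GFP libraries, against 20.8% of all genes. The median log2 fold change of the rod list was -0.64. Rp1, Pde6a, Cnga1 and Nrl stood at -1.32, -1.21, -0.91 and -0.70. Microglia and macrophage markers overlapped, at 7500.2 and 9227 CPM against 5714 to 8809 CPM, with 0 of 15 called by edgeR. At an unadjusted p under 0.05, 2 were higher and 2 lower, against 8.57% and 7.9% of all genes. DESeq2 called 1 lower and limma-voom 0, against 1.29% and 0.272% of all genes. Mrc1, Aif1, Trem2 and C1qa stood at -1.15, 0.84, -0.77 and 0.52. Of 13 RGC markers, Isl1 was called lower (-1.27, adjusted p = 0.0216 from edgeR) and Thy1 (0.65), Stmn2 (0.77) and Gap43 (0.56) were not called. The median of the 13 was 0.39, with 2 above and 1 below all AAV2-GFP libraries in both AAV2-Cre libraries. At an unadjusted p under 0.05, 1 was higher and 1 lower, against 8.57% and 7.9% of all genes. DESeq2 and limma-voom each called 1 lower and 0 higher, where 1.29% and 0.272% of all genes were called lower. None of 6 red cell and neutrophil markers was called by edgeR, DESeq2 or limma-voom and 0 had an unadjusted p under 0.05, with Camp, Ltf, S100a8 and Ngp at 2.40, 1.17, 0.87 and 1.15. The part of these cell types in the levels of the antibody genes was not tested.

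In development, genes of the B lineage ranged widely in counts. Cd79a had 40 over the 8 libraries, Ms4a1 had 7 and Pou2af1 had 17. Mzb1 had 151, at 0.271 to 0.847 CPM. Jchain, with 787 counts, was above each of these. Other genes of the 2 lists had many more, with 37285 for Ebf1 and 9780 for Bach2, both transcription factors of the B cell list. Of the plasma cell list, Xbp1 had 24178, Sdc1 had 3265 and Prdm1 had 3064.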

How the data were processed

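The deposited table held whole-number read counts per gene for 13 libraries, and none of its sample columns was left unused. Per the submitters' processing notes, the authors used FastQC 0.11.9, Trimmomatic 0.39, HISAT2 2.2.1 on GRCm38 (mm10) and featureCounts of Subread 2.0.3. The annotation release, strand setting and treatment of multi-mapped reads are not given in the sources used here. Symbols were matched for 52403 of 52550 genes. The 2 AAV2-Cre and 3 AAV2-GFP libraries were compared with edgeR 4.0.16 (quasi-likelihood test, TMM scaling, filterByExpr, Benjamini-Hochberg adjustment) in R 4.3.3, with calls at an adjusted p under 0.05 and an absolute log2 fold change above 1, the limits the authors used with DESeq2. Alternatives were DESeq2 1.42.0, limma-voom (limma 3.58.1), other scaling and filters, 1 fit of all 13 libraries, a replicate block and leaving out each library. Shares were compared by exact permutation tests in scipy 1.17.1. The fit was tested on simulated data, where it recovered 111 of 188 genes changed 4-fold and called 9 unchanged genes, of 17678. Profiles for likeness used a prior count of 2 and genes of mean log2 CPM of at least 3.

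The members and gene lists were chosen with earlier results of these data known. Named were all members, the lambda constant genes, the list genes with the smallest p (4 per list) and defining markers, apart from some that are not reported here. Genes given as nearest were the 5 of smallest profile difference. Development counts of single B lineage genes were chosen after their values were seen. Depth is given with the results. Levels in the 2 datasets were not tested against each other.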

Additional observations from a re-analysis of the deposited data

How the results depend on the processing

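Ighg2b was called higher in AAV2-Cre under each alternative run, though the setting with no fold limit reused the main fit and could not lose the call. The members called higher, 1 as reported, numbered 3 with DESeq2, 2 with limma-voom, 7 with no low-count filter, 2 with at least 10 counts in every library, 3 with all 13 libraries in 1 fit, and 1 to 2 with a library left out (2 without AAV2-GFP replicate 3). Genes called higher, 207 as reported, numbered 445 with DESeq2, 576 with no low-count filter, 651 with all 13 libraries and 5 to 242 with a library left out. Genes called lower, 40 as reported, numbered 212, 236 and 381 in those 3 fits, 80 with at least 10 counts and 0 to 28 with a library left out. The B cell list, with 5 called, had 10 with DESeq2, 3 without scaling beyond library size, 11 with no low-count filter and 0 to 5 with a library left out. The plasma cell list, with 1 called, had 2 with DESeq2, limma-voom, at least 10 counts or no fold limit, 4 with no low-count filter or all 13 libraries, and 0 to 1 with a library left out. Of the antibody receptors, 1 was called with all 13 libraries or no fold limit. The cause of these moves was not tested.

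The Ighg1 log2 fold change ran from -1.04 (without AAV2-Cre replicate 1) to 1.23 (without AAV2-GFP replicate 2). With a library left out, the difference in share (AAV2-Cre minus AAV2-GFP, percentage points) ran from -31.6 to -11.8 for Igha, from 12.5 to 27.4 for the IgG genes, from -0.649 (without AAV2-Cre replicate 1) to 4.54 for Ighm, and from -0.0806 (without AAV2-Cre replicate 1) to 0.0879 for kappa, which was also -0.00833 without AAV2-GFP replicate 3.

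With the replicate block, which leaves few degrees of freedom, 3 members (Ighg2b, Ighg2c, Igkc) were called higher, 0 of the plasma cell list, and 21 genes lower. Libraries of the same number did not deviate together (correlations of -0.0116 and -0.0351), so the numbers were not taken to pair them. With 2 libraries against 3, the precision rests on the replicates more than on depth, and Ighe, with 2 to 24 counts, is limited by depth as well.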
